A study of Homo sapiens with 36 samples.

Results

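The genes described here are 37 members of the ATF4 amino acid and stress response, taken by their symbols from a count table of 37549 gene symbols. They are genes of the integrated stress response, of serine synthesis and of amino acid transport. The rule picks them by symbol and uses no measured value, but the members were chosen with earlier results of these data known. Their shares set beside those of all genes are therefore descriptions. The counts came from 36 RNA-sequencing libraries of 3 established human B-cell leukaemia lines, MEC1, JVM2 and EHEB, with 3 libraries in each of 12 groups. Cells of each line received the solvent control DMSO, the purine analogue fludarabine at 50 µM, the BTK inhibitor ibrutinib at 5 µM or the PI3K delta inhibitor idelalisib at 10 µM. MEC1 cells were exposed for 48 h, while JVM2 cells stayed in drug for 72 h and EHEB cells for 96 h. Effects of the line and of exposure time therefore cannot be told apart, and the doses differed between drugs. The question was how each drug changed these genes within each line.

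ATF4 is a transcription factor whose translation increases when stress kinases phosphorylate the initiation factor eIF2. The kinases sense amino acid shortage, misfolded protein in the endoplasmic reticulum, double-stranded RNA or haem deficiency. ATF4 binds DNA as a dimer with partners such as CEBPB and CEBPG, at composite sites that join an element of the C/EBP family to one of the ATF family. Its targets import and synthesise amino acids, charge tRNAs and feed back on translation and on mTORC1, the kinase complex that couples amino acid supply to growth. Because ATF4 is controlled largely at translation, its mRNA level is not a measure of its activity.

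The composite sites share the core TGATGNAA, where N is any base, and the sequences below are shown because they place that core in the promoters of genes whose values follow. The window searched ran from 250 bases before to 50 bases after each RefSeq start on GRCh38.p14, on both strands (TTNCATCA on the other strand). Of the 37 genes, 29 had a window, and the core was found in 9 of them (31.0%): ATF3, ASNS, CHAC1, JDP2, CEBPG, SLC1A5, SLC1A4, SLC3A2 and SLC7A1. Among all 27305 genes with a window, 4.46% held it. Some genes have several starts, and the core stood in 9 of 49 member windows (18.4%) and in 3.62% of all 35116 windows. No window was given for SHMT2, EIF4EBP1, NUPR1, PYCR1, GPT2, PSPH, SLC7A11 and ALDH1L2. In 6 genes the core lay wholly upstream of the start, and 30 bases around it are printed 5′ to 3′ on the gene's strand with the core in capitals. A match is a description of the letters and not a binding site.
ATF3, chr1:212565205-212565234, + strand: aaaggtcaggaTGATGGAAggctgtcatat
ASNS, chr7:97872458-97872487, − strand: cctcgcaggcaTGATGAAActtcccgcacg
JDP2, chr14:75427992-75428021, + strand: tatatagccggggcTGATGCAAcccgtccc
CHAC1, chr15:40953251-40953280, + strand: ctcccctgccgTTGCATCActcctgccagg
CEBPG, chr19:33374060-33374089, + strand: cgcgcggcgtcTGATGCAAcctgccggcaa
SLC1A5, chr19:46784893-46784922, − strand: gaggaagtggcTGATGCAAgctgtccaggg
CEBPG, JDP2 and SLC1A5 carried the same 8 letters, TGATGCAA, and CHAC1 carried them on the other strand.

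Libraries held 26590705 to 53538925 counts. Levels are given in CPM, a count relative to the library total, scaled by TMM normalisation within a line. A gene is called higher or lower where the edgeR quasi-likelihood test gave a Benjamini-Hochberg adjusted p under 0.05 over all genes tested, and ± is the SE of a log2 fold change with 3 libraries against 3. The labels do not say whether libraries of a group came from separate cultures, so p-values measure only the spread between these samples. Fludarabine libraries were shallower than DMSO libraries in MEC1 (26590705 to 34231720 against 37077174 to 46425576 counts) and in EHEB (28080980 to 36523545 against 42832321 to 47140796). The library numbers of the kinase inhibitors form a series of their own with no DMSO library in it, so that a difference between series and the effect of these drugs cannot be told apart.

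The B-cell identity of the lines was seen in their markers. The 5 B-cell markers MS4A1, CD79A, CD79B, PAX5 and CD22 had counts in every group, with summed levels of 596 to 1617 CPM. With fludarabine the sum was lower in JVM2 (596 to 659 against 1161 to 1176 CPM, 5 of 5 called lower), EHEB (843 to 949 against 1506 to 1564 CPM, 5 of 5) and MEC1 (821 to 834 against 915 to 979 CPM, 3 of 5 lower and 1 higher). It was higher in MEC1 with ibrutinib (1450.0 to 1617 CPM, 5 of 5 called higher) and with idelalisib (1470.4 to 1526 CPM, 3 of 5). It also lay above DMSO in JVM2 with ibrutinib (1262 to 1289 CPM, 2 of 5 called higher) and idelalisib (1263 to 1285 CPM, 1 of 5). The 5 T and NK cell markers summed to 6.13 CPM at most. The 5 epithelial and fibroblast markers summed to 3.28 to 53.7 CPM, highest in JVM2. In MEC1 with fludarabine the T and NK cell sum was 3.28 to 3.85 CPM against 0.268 to 0.395 CPM with DMSO, and the epithelial and fibroblast sum was 13.0 to 14.3 against 3.28 to 4.28 CPM. The latter also stood at 10.6 to 13.4 CPM with ibrutinib and 14.4 to 17.7 CPM with idelalisib in EHEB, against 4.42 to 5.83 CPM, and at 22.8 to 26.5 CPM with fludarabine in JVM2, against 41.5 to 47.4 CPM. In MEC1 with ibrutinib it was 6.16 to 7.50 CPM, also above DMSO. The T and NK cell sum in EHEB was 1.66 to 4.07 CPM over the 3 drugs, below the 5.20 to 6.13 CPM of DMSO. The 5 myeloid markers summed to 6.81 to 63.8 CPM, mostly from ITGAM, while LYZ and MPO had group means of at most 0.058 and 0.10 CPM. CSF1R, also on the list, was called higher in MEC1 with fludarabine, 2.74 ± 0.36 (adjusted p = 0.000103). It was not called with the other drugs in MEC1 or with any drug in JVM2. The myeloid sum lay above DMSO without overlap with every drug in MEC1 (up to 42.6 to 45.6 CPM with idelalisib against 6.81 to 8.59 CPM) and in JVM2, and with fludarabine in EHEB (53.5 to 63.8 against 20.1 to 24.5 CPM). The part of these shifts in the results that follow was not tested, and in bulk libraries fewer cells of a type and less RNA per cell cannot be told apart.

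The 37 genes took the largest share of all counts in MEC1, at 0.445% to 0.461% in the DMSO libraries, against 0.235% to 0.240% in JVM2 and 0.160% to 0.165% in EHEB. In MEC1 the share was 0.343% to 0.354% with fludarabine, 0.220% to 0.256% with ibrutinib and 0.199% to 0.211% with idelalisib, in each case without overlap with DMSO. In JVM2 it was 0.211% to 0.218% with fludarabine, below every DMSO library, 0.231% to 0.246% with ibrutinib, which overlapped DMSO, and 0.241% to 0.262% with idelalisib, above every DMSO library. In EHEB it was above every DMSO library with fludarabine (0.207% to 0.214%) and below every one with ibrutinib (0.145% to 0.152%) and idelalisib (0.142% to 0.149%).

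**Figure D1:**
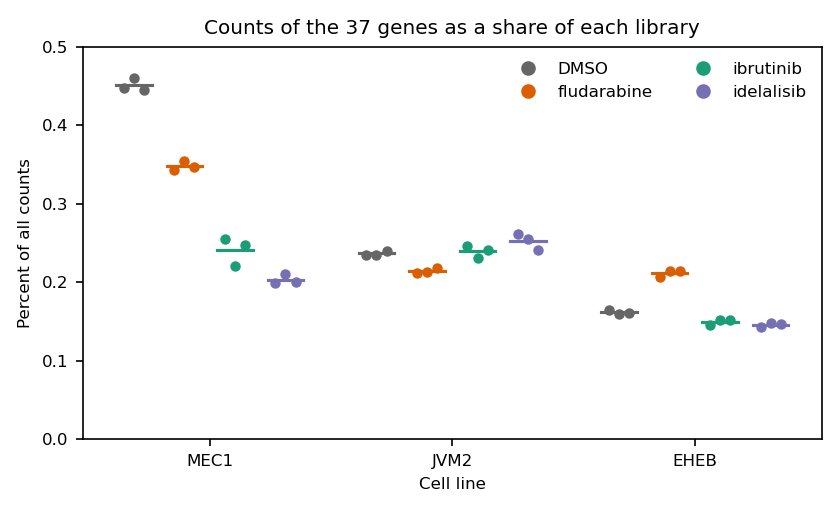
Summed counts of the 37 genes as a percent of all counts of the library (vertical axis, from 0), by cell line and treatment. Each point is a library and each bar the mean of 3. The MEC1 shares stepped down from 0.445% or more with DMSO to 0.211% or less with idelalisib, and in EHEB the fludarabine libraries stood above the other groups.

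In MEC1, where 36 of the genes could be tested, fludarabine lowered 25 and raised 0 (69.4% lower, beside 22.7% lower and 21.2% higher among all 17516 genes). Ibrutinib lowered 32 and raised 1 (88.9% lower, beside 23.9% lower and 23.7% higher among all genes), and idelalisib likewise lowered 32 and raised 1 (beside 27.4% lower and 27.6% higher). The median log2 fold change of the 36 genes was −0.63 with fludarabine, −1.33 with ibrutinib and −1.42 with idelalisib, while that of all genes was 0.06, 0.06 and 0.08. NUPR1 had no count in any MEC1 library. The fludarabine split depended on scaling: by library size without TMM, 20 were lower and 4 higher (CEBPG, PSPH, CBS and SLC7A11), and the median of all genes moved from 0.06 to 0.31.

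In JVM2 the response was mixed. Fludarabine raised 11 and lowered 16 of the 36 genes tested (30.6% and 44.4%, beside 23.9% and 23.3% of all 17508 genes). Ibrutinib raised 10 and lowered 10 (beside 14.5% and 15% of all genes), and idelalisib raised 15 and lowered 11 (beside 21.6% and 22.6%). The medians were −0.20, 0.02 and 0.11, or −0.20, 0.03 and 0.14 with NUPR1, which had no DMSO count, at its bound or left out. PSAT1 had no count in any JVM2 library. Scaling by library size moved the median of all genes with fludarabine from 0.06 to 0.26, and the split with that drug was then 13 higher and 13 lower.

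In EHEB most called genes were higher with fludarabine and most were lower with idelalisib, while ibrutinib had no clear direction. Fludarabine raised 20 and lowered 6 of the 37 genes (54.1% and 16.2%, beside 18.4% and 19.2% of all 17748 genes), with a median of 0.50. Ibrutinib raised 5 and lowered 7 (beside 8.5% and 11.2%), and idelalisib raised 7 and lowered 16 (43.2% lower, beside 15.1% higher and 18.2% lower). The 6 lower with fludarabine, the 5 higher with ibrutinib and the 7 higher with idelalisib lay near the shares of all genes. The medians with ibrutinib and idelalisib were 0.01 and −0.26, or −0.14 and −0.29 without NUPR1 and CBS, which had no DMSO counts. With ibrutinib 5 were higher and 4 lower when scaled by library size.

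**Figure D2:**
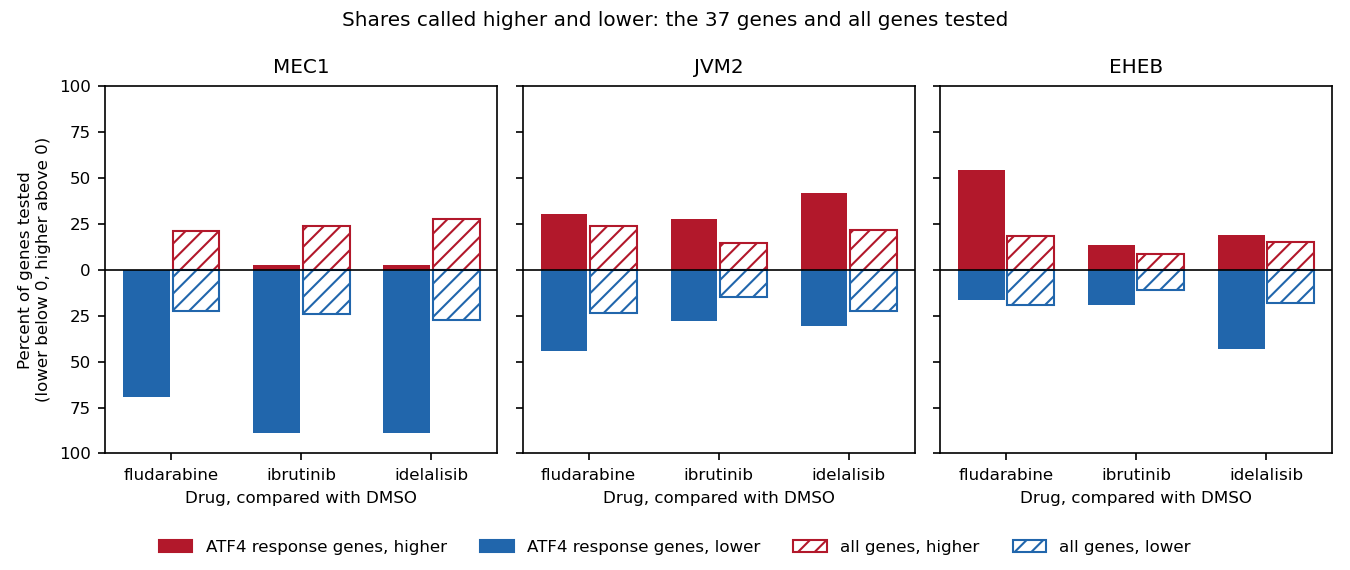
Percent of genes called higher (red, above 0) and lower (blue, below 0) against DMSO, by line and drug. Filled bars are the 36 or 37 ATF4 response genes tested and hatched bars all genes tested. The filled bars reach 88.9% lower in MEC1 with ibrutinib and idelalisib and 54.1% higher in EHEB with fludarabine, while no hatched bar exceeds 27.6%.

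**Figure D3:**
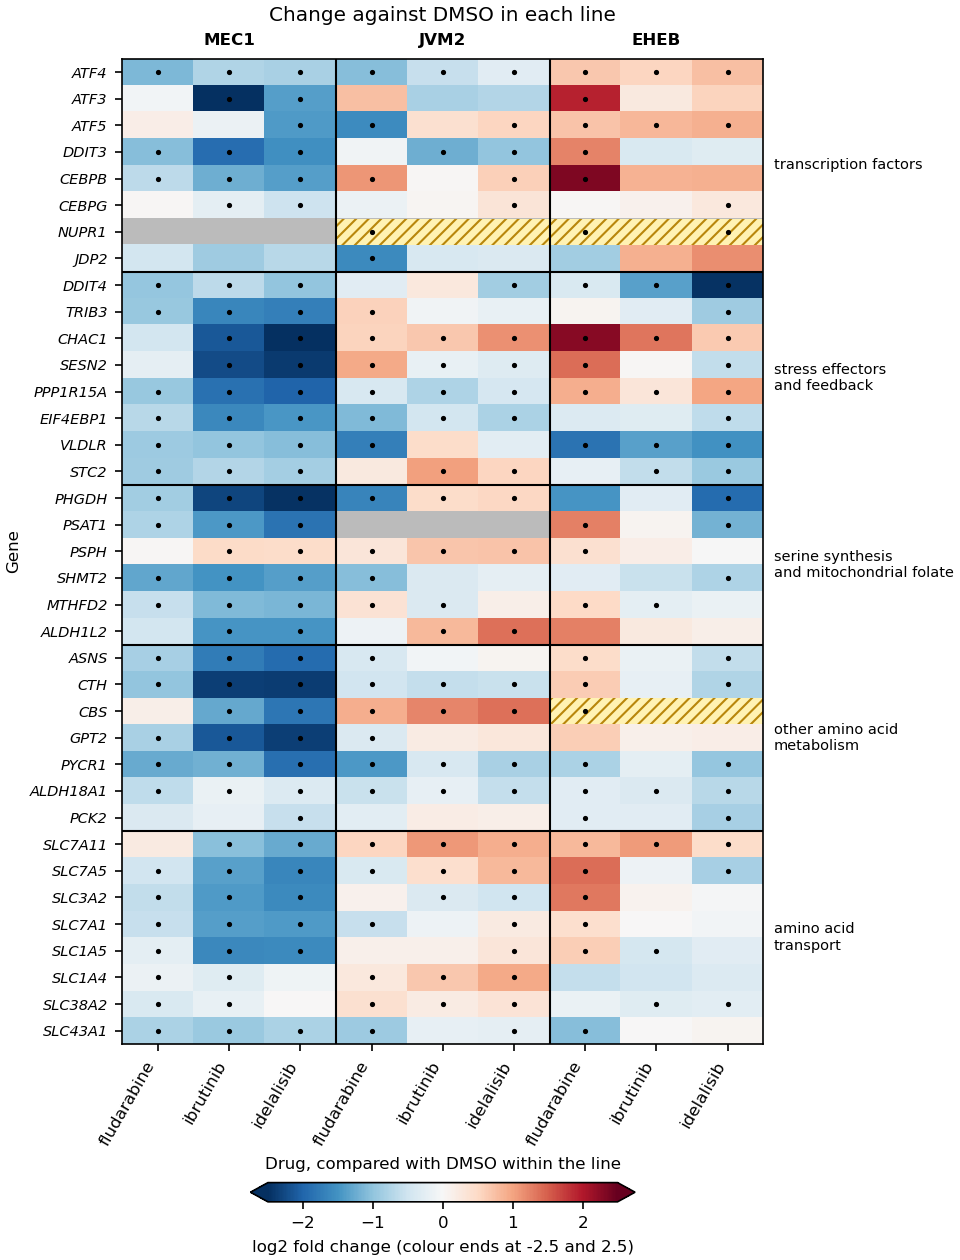
Log2 fold change against DMSO (colour, ending at −2.5 and 2.5) of the 37 genes, in rows by role, for each drug in each line. Dots mark calls, grey fields genes that were not tested, and hatched yellow fields genes without a DMSO count, for which no fold is shown. MEC1 is blue in most rows, with PSPH called higher for ibrutinib and idelalisib, and the fludarabine column of EHEB holds 20 genes called higher, among them NUPR1 and CBS in hatched fields.

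No library was shared between lines, so directions could be compared across them. With fludarabine, 17 genes were called in both MEC1 and EHEB, and 12 of these went opposite ways (70.6%, beside 24.6% of all genes called in both), each lower in MEC1 and higher in EHEB: ATF4, DDIT3, CEBPB, PPP1R15A, ASNS, CTH, PSAT1, MTHFD2, SLC7A5, SLC3A2, SLC7A1 and SLC1A5. With idelalisib, 24 were called in both MEC1 and JVM2, and 12 (50.0%, beside 28% of all genes called in both) were lower in MEC1 and higher in JVM2, among them CHAC1, PHGDH, ALDH1L2, CBS, CEBPB, SLC7A11 and SLC7A5. With ibrutinib, 20 were called in both of those lines and 9 (45.0%, beside 20%) were lower in MEC1 and higher in JVM2. In the other pairs of lines at least as many of the genes called in both kept direction as turned it. With fludarabine 14 of 19 moved the same way in MEC1 and JVM2, and 5 opposite ways (26.3%, beside 16.8%), while in JVM2 and EHEB these were 12 and 7 of 19 (36.8%, beside 11.8%). With ibrutinib 7 of 11 moved the same way in MEC1 and EHEB and 4 opposite ways (36.4%, beside 21.7%), and in JVM2 and EHEB 4 and 4 of 8 (50.0%, beside 17%). With idelalisib 15 of 21 moved the same way in MEC1 and EHEB and 6 opposite ways (28.6%, beside 35.9%), and in JVM2 and EHEB 10 and 6 of 16 (37.5%, beside 15.9%). The line by treatment interaction, which tests the difference itself, was called for 27 of 37 genes with fludarabine (39.1% of all genes), 32 of 36 with ibrutinib (33.6%) and 36 of 36 with idelalisib (45.7%). These counts include genes with empty groups. PSAT1, called with each drug, had no count in JVM2, and CBS, also called with each, had none with DMSO in EHEB. NUPR1, not called with fludarabine, had no count in MEC1 or with DMSO. The interaction was called for each gene that went opposite ways, which opposite calls in the same libraries nearly fix in advance.

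Among the 8 transcription factors, 6 were higher and 0 lower in EHEB with fludarabine, while 0 were higher and 6 lower in MEC1 with idelalisib, of 7 tested. In MEC1, 3 were lower with fludarabine and 5 with ibrutinib, and none was higher. In JVM2 the counts higher and lower were 2 and 3 with fludarabine, 0 and 2 with ibrutinib and 3 and 2 with idelalisib. In EHEB, 2 were higher with ibrutinib and 4 with idelalisib, and none was lower. Of all genes, 21.2% and 22.7%, 23.7% and 23.9%, and 27.6% and 27.4% were higher and lower in MEC1 with fludarabine, ibrutinib and idelalisib. In JVM2 these shares were 23.9% and 23.3%, 14.5% and 15%, and 21.6% and 22.6%. Those of EHEB were 18.4% and 19.2%, 8.5% and 11.2%, and 15.1% and 18.2%. The 2 of 8 higher in JVM2 with fludarabine and the 2 of 8 lower with idelalisib lay near these shares.

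ATF4 itself was called in all 9 comparisons. In MEC1 its levels were 402, 389 and 432 CPM with DMSO, 183, 190.4 and 185.6 CPM with fludarabine, 242, 235 and 247 CPM with ibrutinib and 256, 211 and 234.3 CPM with idelalisib. JVM2 had 333, 392 and 409 CPM with DMSO, 194, 186.5 and 164 CPM with fludarabine, 261, 256 and 239.7 CPM with ibrutinib and 329, 295 and 305 CPM with idelalisib. EHEB had 93.8, 93.2 and 117 CPM with DMSO, 156, 157 and 169 CPM with fludarabine, 149, 143.4 and 149.6 CPM with ibrutinib and 155, 180.3 and 175 CPM with idelalisib. Every treated library lay below the DMSO libraries in MEC1 and JVM2, and every treated library lay above them in EHEB, which had the lowest ATF4 level with DMSO. The log2 fold changes in MEC1 were −1.13 ± 0.07 (adjusted p = 5.26e-07), −0.76 ± 0.07 (adjusted p = 6.68e-06) and −0.80 ± 0.07 (adjusted p = 2.72e-06) with fludarabine, ibrutinib and idelalisib. In JVM2 they were −1.06 ± 0.09 (adjusted p = 2.19e-06), −0.58 ± 0.09 (adjusted p = 0.000512) and −0.29 ± 0.08 (adjusted p = 0.0176). The idelalisib call was lost without DMSO library JVM2_CTRL_DMSO_86 (0.0574) or JVM2_CTRL_DMSO_87 (0.0691) or without idelalisib library JVM2_Idel_10uM_239 (0.0725) or JVM2_Idel_10uM_240 (0.0575), where the figures are adjusted p. In EHEB they were 0.67 ± 0.09 (adjusted p = 0.000127), 0.54 ± 0.09 (adjusted p = 0.00164) and 0.75 ± 0.09 (adjusted p = 7.69e-05). The processed pseudogene ATF4P3, counted apart, held 1.17% to 1.33% as many counts as ATF4.

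DDIT3 encodes CHOP, a factor downstream of ATF4 linked to cell death under lasting stress. In MEC1 its levels were 26.2, 27.1 and 16.8 CPM with DMSO, 8.67, 10.3 and 14.5 CPM with fludarabine, 5.84, 7.21 and 5.57 CPM with ibrutinib and 11.1, 7.07 and 6.01 CPM with idelalisib. JVM2 libraries held 13.6, 19.7 and 16.4 CPM with DMSO, 21.6, 13.7 and 11.4 CPM with fludarabine, 8.53, 5.47 and 7.32 CPM with ibrutinib and 8.50, 5.48 and 11.1 CPM with idelalisib. EHEB libraries held 3.71, 4.52 and 4.27 CPM with DMSO, 10.8, 10.2 and 8.39 CPM with fludarabine, 2.88, 3.53 and 3.25 CPM with ibrutinib and 3.17, 2.84 and 4.13 CPM with idelalisib. It was below DMSO without overlap with every drug in MEC1 and with both kinase inhibitors in JVM2, and above DMSO with fludarabine in EHEB. DDIT3 fell in MEC1, −1.07 ± 0.26 (adjusted p = 0.00679) with fludarabine, −1.91 ± 0.27 (adjusted p = 0.000148) with ibrutinib and −1.54 ± 0.27 (adjusted p = 0.000487) with idelalisib. In JVM2 it fell with ibrutinib, −1.22 ± 0.30 (adjusted p = 0.0102), and with idelalisib, −0.99 ± 0.29 (adjusted p = 0.0186), the largest falls of the 36 genes in those comparisons. The latter was lost without DMSO library JVM2_CTRL_DMSO_86 (adjusted p = 0.0668) or idelalisib library JVM2_Idel_10uM_239 (adjusted p = 0.0671). In EHEB it rose with fludarabine, 1.23 ± 0.17 (adjusted p = 0.000131), and the values with ibrutinib and idelalisib were −0.37 ± 0.17 (adjusted p = 0.148) and −0.31 ± 0.17 (adjusted p = 0.193). The DDIT3 locus overlaps MARS1 and MBD6 on the other strand and MIR616 on its own.

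CEBPB is a dimer partner of ATF4. In MEC1 it measured 13.8, 13.3 and 15.2 CPM with DMSO, 8.38, 10.2 and 8.21 CPM with fludarabine, 5.499, 6.12 and 6.396 CPM with ibrutinib and 5.45, 6.10 and 4.72 CPM with idelalisib. In JVM2 it measured 4.73, 5.19 and 5.04 CPM with DMSO, 11.3, 10.1 and 10.6 CPM with fludarabine, 4.12, 5.999 and 5.25 CPM with ibrutinib and 7.07, 8.09 and 7.49 CPM with idelalisib. In EHEB it measured 0.643, 1.16 and 0.556 CPM with DMSO, 3.57, 3.798 and 4.55 CPM with fludarabine, 1.44, 1.58 and 1.303 CPM with ibrutinib and 1.41, 2.01 and 0.89 CPM with idelalisib. The MEC1 treated libraries all lay below DMSO. Fludarabine libraries lay above DMSO in JVM2 and EHEB, as did idelalisib libraries in JVM2 and ibrutinib libraries in EHEB. With fludarabine CEBPB fell in MEC1, −0.65 ± 0.13 (adjusted p = 0.00149), and rose in JVM2, 1.10 ± 0.13 (adjusted p = 3.7e-05), and EHEB, 2.34 ± 0.33 (adjusted p = 0.000211). With ibrutinib and idelalisib in MEC1 they were −1.23 ± 0.13 (adjusted p = 1.52e-05) and −1.38 ± 0.13 (adjusted p = 4.52e-06), and with idelalisib in JVM2 0.60 ± 0.13 (adjusted p = 0.00307). The values with ibrutinib in JVM2, 0.03 ± 0.13 (adjusted p = 0.882), and with ibrutinib and idelalisib in EHEB, 0.87 ± 0.33 (adjusted p = 0.0923) and 0.88 ± 0.33 (adjusted p = 0.065), did not pass. Those of EHEB were called without DMSO library EHEB_CTRL_DMSO_134 (adjusted p = 0.0309 and 0.0169), and the idelalisib one without idelalisib library EHEB_Idel_10uM_288 (0.0237).

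JDP2, an AP-1 family repressor and one of the genes with the core printed above, moved little beyond its spread. MEC1 libraries held 14.2, 7.60 and 11.4 CPM with DMSO, 6.29, 12.1 and 5.63 CPM with fludarabine, 8.98, 4.19 and 4.70 CPM with ibrutinib and 6.43, 6.62 and 7.63 CPM with idelalisib. JVM2 libraries had 12.1, 10.3 and 11.8 CPM with DMSO, 3.27, 5.90 and 2.21 CPM with fludarabine, 9.89, 10.6 and 5.47 CPM with ibrutinib and 12.3, 7.03 and 7.49 CPM with idelalisib. In EHEB the values were 0.841, 3.63 and 3.74 CPM with DMSO, 0.392, 2.18 and 1.88 CPM with fludarabine, 4.79, 6.82 and 3.57 CPM with ibrutinib and 6.38, 5.06 and 6.99 CPM with idelalisib. All groups overlapped DMSO except fludarabine in JVM2, which was below it, and idelalisib in EHEB, which was above it. The fall in JVM2 was −1.59 ± 0.36 (adjusted p = 0.00399). The other comparisons ran from −0.89 (ibrutinib in MEC1) to 1.16 (idelalisib in EHEB) and were not called. The ibrutinib value in MEC1 was called without DMSO library MEC1_DMSO_CTRL_48h_38 (adjusted p = 0.0323) or ibrutinib library MEC1_Ibru_5uM_48h_184 (0.0101).

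NUPR1, a small stress-induced nuclear protein, was found in few groups. It had 0 counts in all 9 DMSO libraries, which allows up to 3 counts in each, and 0 in all MEC1 libraries. With fludarabine it had 107 to 160 counts in JVM2 (2.32 to 3.58 CPM) and 171 to 223 in EHEB (5.90 to 6.43 CPM). Against 3 counts per DMSO library, these levels were at least 40.3-fold higher in JVM2 and at least 86.4-fold higher in EHEB (adjusted p = 0.000275 and 0.000145). In EHEB, ibrutinib libraries had 0 to 6 counts and idelalisib libraries 0 to 20, and no library of these drugs in JVM2 had any. The idelalisib group was called higher, but 1 of its 3 libraries had no count, and the call was lost without idelalisib library EHEB_Idel_10uM_287 (adjusted p = 0.0539) and in limma-voom (adjusted p = 0.0841).

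ATF3, a stress-induced factor, fell with both kinase inhibitors in MEC1, from 14.9 to 30.2 CPM to 1.14 to 6.51 CPM with ibrutinib, −2.69 ± 0.49 (adjusted p = 0.000837), and to 9.08 to 9.87 CPM with idelalisib, −1.38 ± 0.46 (adjusted p = 0.0246). The ibrutinib change was the largest fall in that comparison, and the idelalisib call was lost on leaving out any 1 of 5 libraries, DMSO MEC1_DMSO_CTRL_48h_37 or MEC1_DMSO_CTRL_48h_39 or idelalisib MEC1_Idel_10uM_48h_190, MEC1_Idel_10uM_48h_191 or MEC1_Idel_10uM_48h_192 (adjusted p = 0.0587 to 0.0738). It rose with fludarabine in EHEB, from 14.2 to 15.3 to 49.3 to 60.3 CPM, 1.92 ± 0.28 (adjusted p = 0.000264). ATF5, a relative of ATF4, fell with fludarabine in JVM2 from 209 to 224 to 63.7 to 85.1 CPM, −1.58 ± 0.18 (adjusted p = 3.7e-05), and with idelalisib in MEC1, −1.41 ± 0.30 (adjusted p = 0.00196). It rose in EHEB with fludarabine, ibrutinib and idelalisib, 0.72 ± 0.18 (adjusted p = 0.00773), 0.82 ± 0.18 (adjusted p = 0.00785) and 0.88 ± 0.18 (adjusted p = 0.00288). CEBPG, the other C/EBP partner on the list, fell with idelalisib in MEC1 from 60.3 to 64.8 to 43.3 to 44.2 CPM, −0.52 ± 0.08 (adjusted p = 0.000139). It rose with idelalisib in JVM2, 0.32 ± 0.06 (adjusted p = 0.00143), and in EHEB, 0.27 ± 0.07 (adjusted p = 0.0106).

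**Figure D4:**
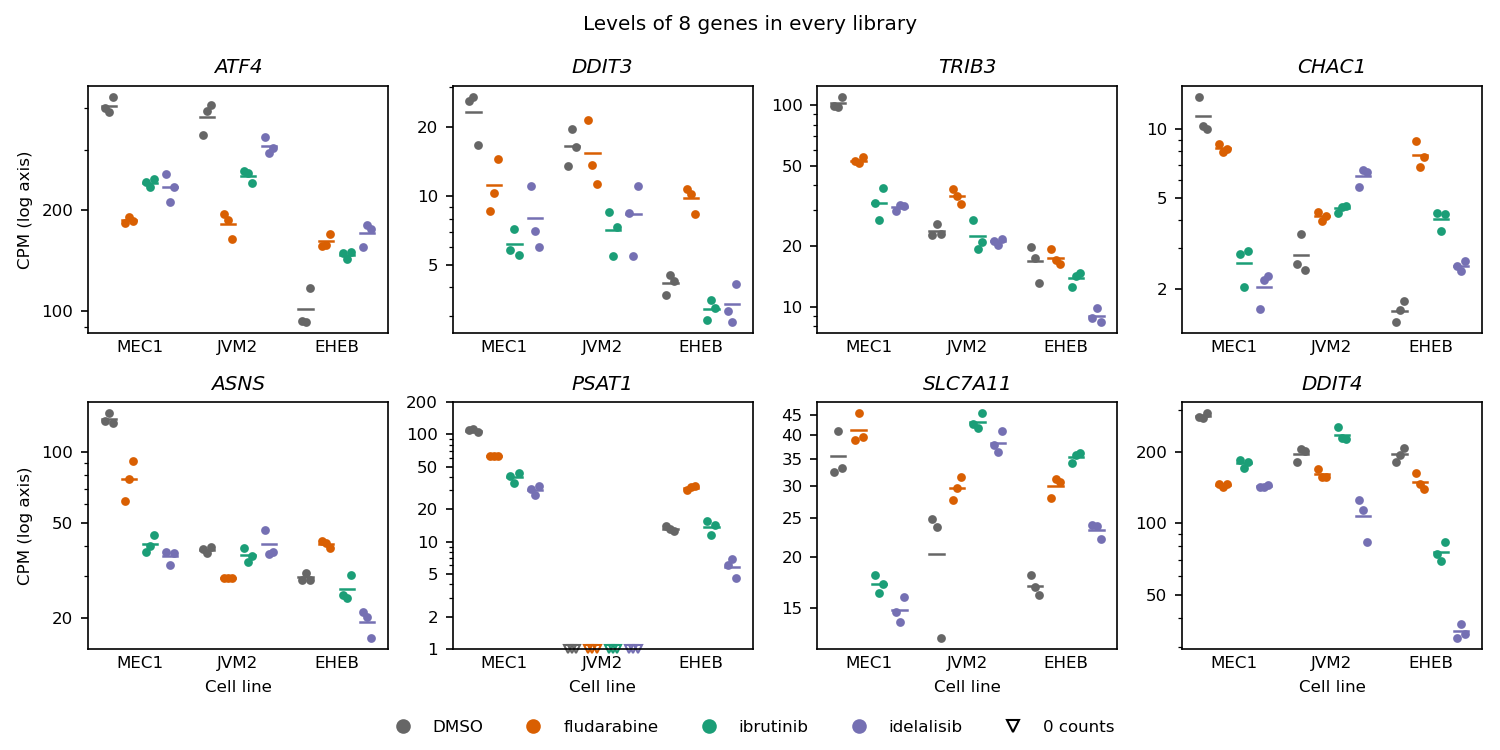
Level of 8 genes in each of the 36 libraries (CPM, log axis, a scale of its own in each panel), by line and treatment, with group means as bars. Open triangles mark libraries without a count, which are all 12 JVM2 libraries for PSAT1. ASNS, TRIB3 and PSAT1 lie below DMSO with each drug in MEC1. SLC7A11 and CHAC1 stand above DMSO with each drug in JVM2 and EHEB, and DDIT4 reaches 33.0 CPM with idelalisib in EHEB.

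The 8 stress effectors and feedback genes were all lower in MEC1 with ibrutinib and with idelalisib, and 6 were lower with fludarabine. In JVM2 the counts higher and lower were 3 and 3 with fludarabine, 2 and 3 with ibrutinib and 2 and 4 with idelalisib. In EHEB they were 3 and 2, 2 and 3, and 2 and 6. The shares of all genes are those given with the transcription factors. The 2 of 8 higher in JVM2 with idelalisib lay near its share, 21.6%. So did the 2 of 8 lower in EHEB with fludarabine, beside 19.2%.

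DDIT4 encodes REDD1, an inhibitor of mTORC1. In MEC1 it measured 280.6, 276 and 289.8 CPM with DMSO, 146, 142.6 and 146 CPM with fludarabine, 185.1, 171 and 180.4 CPM with ibrutinib and 142.6, 142.2 and 145 CPM with idelalisib. JVM2 libraries measured 181, 205 and 201 CPM with DMSO, 169, 157 and 157 CPM with fludarabine, 253, 228 and 226 CPM with ibrutinib and 125, 113 and 83.1 CPM with idelalisib. EHEB libraries measured 182, 194 and 208 CPM with DMSO, 163, 146 and 139 CPM with fludarabine, 74.1, 69.4 and 83.5 CPM with ibrutinib and 33.0, 37.7 and 34.3 CPM with idelalisib. All treated groups lay below DMSO except ibrutinib in JVM2, which lay above it. The largest change was with idelalisib in EHEB, −2.47 ± 0.09 (adjusted p = 3.23e-08), followed by ibrutinib in EHEB, −1.36 ± 0.09 (adjusted p = 4.97e-06), each the largest fall of its comparison. Fludarabine lowered it, −0.38 ± 0.09 (adjusted p = 0.00505) in EHEB and −0.96 ± 0.05 (adjusted p = 1.45e-07) in MEC1, and the value in JVM2 was −0.28 ± 0.12 (adjusted p = 0.0839). With ibrutinib and idelalisib it fell in MEC1, −0.66 ± 0.05 (adjusted p = 1.23e-06) and −0.98 ± 0.05 (adjusted p = 6.19e-08). In JVM2 it fell with idelalisib, −0.87 ± 0.12 (adjusted p = 0.000198), and the ibrutinib value was 0.27 ± 0.12 (adjusted p = 0.131).

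TRIB3 is a pseudokinase that binds AKT and dampens ATF4 activity. In MEC1 its levels read 99.2, 97.8 and 109 CPM with DMSO, 52.6, 51.5 and 55.0 CPM with fludarabine, 32.6, 26.99 and 38.8 CPM with ibrutinib and 29.8, 31.9 and 31.6 CPM with idelalisib. In JVM2 its levels read 22.7, 25.7 and 22.9 CPM with DMSO, 38.3, 35.2 and 32.2 CPM with fludarabine, 26.9, 19.3 and 20.8 CPM with ibrutinib and 21.1, 20.3 and 21.7 CPM with idelalisib. In EHEB its levels read 19.8, 17.5 and 13.1 CPM with DMSO, 19.2, 17.0 and 16.3 CPM with fludarabine, 12.6, 14.2 and 14.6 CPM with ibrutinib and 8.77, 9.82 and 8.42 CPM with idelalisib. MEC1 with DMSO stood above all other groups, and each drug lowered it there, −0.95 ± 0.11 (adjusted p = 3.87e-05), −1.64 ± 0.11 (adjusted p = 7.31e-07) and −1.71 ± 0.11 (adjusted p = 3.11e-07) with fludarabine, ibrutinib and idelalisib. It rose with fludarabine in JVM2, 0.57 ± 0.12 (adjusted p = 0.00209), and fell with idelalisib in EHEB, −0.89 ± 0.14 (adjusted p = 0.000676). The fludarabine libraries of EHEB overlapped DMSO, 0.06 ± 0.14 (adjusted p = 0.783), as did the ibrutinib libraries of both these lines, and without DMSO library EHEB_CTRL_DMSO_135 the ibrutinib value of EHEB was called at −0.43 (adjusted p = 0.0306).

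CHAC1 degrades glutathione and is a known ATF4 target. In MEC1 it was found at 13.8, 10.3 and 10.003 CPM with DMSO, 8.58, 7.93 and 8.21 CPM with fludarabine, 2.84, 2.02 and 2.94 CPM with ibrutinib and 1.63, 2.18 and 2.28 CPM with idelalisib. In JVM2 it was found at 2.56, 3.47 and 2.42 CPM with DMSO, 4.32, 3.97 and 4.16 CPM with fludarabine, 4.29, 4.58 and 4.62 CPM with ibrutinib and 5.604, 6.62 and 6.50 CPM with idelalisib. In EHEB it was found at 1.43, 1.62 and 1.76 CPM with DMSO, 8.85, 6.82 and 7.57 CPM with fludarabine, 4.29, 3.60 and 4.25 CPM with ibrutinib and 2.501, 2.40 and 2.64 CPM with idelalisib. Every treated group lay below DMSO in MEC1 and above DMSO in JVM2 and EHEB. In MEC1 it fell with ibrutinib, −2.13 ± 0.19 (adjusted p = 4.46e-06), and with idelalisib, −2.48 ± 0.19 (adjusted p = 1.01e-06), the largest fall of the latter comparison, and the fludarabine value was −0.47 ± 0.18 (adjusted p = 0.0524). In EHEB it rose, 2.27 ± 0.15 (adjusted p = 5.81e-07) with fludarabine, 1.33 ± 0.15 (adjusted p = 0.000117) with ibrutinib and 0.65 ± 0.15 (adjusted p = 0.00636) with idelalisib. In JVM2 it rose, 0.56 ± 0.14 (adjusted p = 0.00787), 0.67 ± 0.14 (adjusted p = 0.00497) and 1.15 ± 0.14 (adjusted p = 8.09e-05). The fludarabine value in MEC1 was called without DMSO library MEC1_DMSO_CTRL_48h_39 (adjusted p = 0.0474), in DESeq2 (0.0430) and in limma-voom (0.0264).

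PPP1R15A encodes GADD34, which directs a phosphatase to eIF2 and so ends the response. MEC1 libraries measured 70.4, 65.5 and 71.5 CPM with DMSO, 35.7, 39.6 and 32.1 CPM with fludarabine, 20.9, 16.9 and 19.4 CPM with ibrutinib and 14.4, 18.2 and 18.9 CPM with idelalisib. JVM2 libraries read 111, 124 and 129.6 CPM with DMSO, 94.6, 92.8 and 89.5 CPM with fludarabine, 76.2, 71.9 and 65.2 CPM with ibrutinib and 91.7, 94.1 and 85.7 CPM with idelalisib. EHEB libraries read 72.03, 77.2 and 92.3 CPM with DMSO, 147, 160.2 and 149 CPM with fludarabine, 96.3, 100.3 and 102 CPM with ibrutinib and 152, 164 and 164 CPM with idelalisib. Like ATF4, it lay below DMSO with every drug in MEC1 and JVM2 and above DMSO with every drug in EHEB, and all 9 comparisons were called. The falls in MEC1 were −0.95 ± 0.12 (adjusted p = 6.51e-05), −1.86 ± 0.12 (adjusted p = 5.42e-07) and −2.01 ± 0.12 (adjusted p = 1.9e-07) with fludarabine, ibrutinib and idelalisib. Those in JVM2 were −0.40 ± 0.07 (adjusted p = 0.001), −0.77 ± 0.07 (adjusted p = 3.34e-05) and −0.43 ± 0.07 (adjusted p = 0.000716). The rises in EHEB were 0.92 ± 0.08 (adjusted p = 7.12e-06), 0.31 ± 0.08 (adjusted p = 0.0245) and 0.99 ± 0.08 (adjusted p = 5.83e-06). The ibrutinib call in EHEB was lost without DMSO library EHEB_CTRL_DMSO_133 (0.0805) or EHEB_CTRL_DMSO_134 (0.0847), without ibrutinib library EHEB_Ibru_5uM_281 (0.0616) or EHEB_Ibru_5uM_282 (0.0582) and in a fit of 6 libraries (0.0637), all adjusted p.

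VLDLR, a lipoprotein receptor, was lower in 7 of 9 comparisons. In MEC1 the libraries held 32.6, 34.6 and 33.7 CPM with DMSO, 17.9, 19.02 and 16.8 CPM with fludarabine, 17.4, 16.4 and 17.0 CPM with ibrutinib and 15.6, 16.2 and 16.6 CPM with idelalisib. In JVM2 the libraries held 5.88, 6.79 and 5.86 CPM with DMSO, 2.26, 1.82 and 1.56 CPM with fludarabine, 10.3, 7.86 and 7.46 CPM with ibrutinib and 6.75, 5.14 and 3.49 CPM with idelalisib. In EHEB the libraries held 4.77, 6.74 and 6.36 CPM with DMSO, 1.78, 1.05 and 2.14 CPM with fludarabine, 2.99, 1.95 and 2.06 CPM with ibrutinib and 2.54, 1.64 and 2.097 CPM with idelalisib. MEC1 and EHEB libraries lay below DMSO with every drug, and in JVM2 fludarabine lay below and ibrutinib above. Fludarabine lowered it in MEC1, −0.91 ± 0.07 (adjusted p = 2.25e-06), then in JVM2, −1.71 ± 0.24 (adjusted p = 0.000138), and also in EHEB, −1.84 ± 0.29 (adjusted p = 0.000401), the largest falls of the 36 or 37 genes in the last 2 lines. The kinase inhibitors lowered it in MEC1, −0.99 ± 0.07 (adjusted p = 1.06e-06) and −1.06 ± 0.07 (adjusted p = 3.71e-07), and in EHEB, −1.35 ± 0.28 (adjusted p = 0.00607) and −1.52 ± 0.28 (adjusted p = 0.00171). In JVM2 the values were 0.47 ± 0.23 (adjusted p = 0.153) with ibrutinib and −0.27 ± 0.23 (adjusted p = 0.362) with idelalisib.

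SESN2, a leucine sensor that restrains mTORC1, rose with fludarabine in JVM2 from 70.7 to 76.4 to 138 to 145 CPM, 0.95 ± 0.06 (adjusted p = 1.64e-07), and in EHEB from 61.5 to 66.0 to 166 to 172 CPM, 1.40 ± 0.08 (adjusted p = 2.2e-07). In MEC1 its fludarabine value was −0.22 ± 0.09 (adjusted p = 0.0712), and it fell there from 60.7 to 66.0 CPM to 11.9 to 15.3 with ibrutinib and 11.6 to 13.1 with idelalisib, −2.24 ± 0.10 (adjusted p = 3.57e-08) and −2.39 ± 0.10 (adjusted p = 2.23e-08). EIF4EBP1, a repressor of cap-dependent translation, was lower in 7 of 9 comparisons and higher in none, from −1.61 with ibrutinib in MEC1 to −0.30 with ibrutinib in EHEB, which was called only without ibrutinib library EHEB_Ibru_5uM_282 (adjusted p = 0.0456). STC2, a secreted glycoprotein, rose in JVM2 with ibrutinib, 1.02 ± 0.18 (adjusted p = 0.00164), and was also called higher there with idelalisib, 0.53. It fell with every drug in MEC1 and with both kinase inhibitors in EHEB, with changes of −0.92 to −0.62.

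Of the 6 serine synthesis and mitochondrial folate genes, 4 were lower in MEC1 with fludarabine and 5 were lower and 1 higher with each kinase inhibitor. Of the 5 tested in JVM2, the counts higher and lower were 2 and 2 with fludarabine, 3 and 1 with ibrutinib and 3 and 0 with idelalisib. In EHEB they were 3 and 0 with fludarabine, 0 and 1 with ibrutinib and 0 and 3 with idelalisib. The shares of all genes are those given with the transcription factors. With ibrutinib the 1 of 5 lower in JVM2 (beside 15%) and the 1 of 6 lower in EHEB (beside 11.2%) lay near them.

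The lines differed in which steps of the serine pathway they expressed. The pathway turns a glycolytic intermediate into serine through PHGDH, PSAT1 and PSPH in that order. All 3 were detected in every MEC1 library. In JVM2 PSAT1 had 0 counts in all 12 libraries, which allows up to 3 counts in each, while PHGDH and PSPH were detected in every library. In EHEB PHGDH had 5 to 56 counts per library, or 0.109 to 0.493 CPM with idelalisib and 0.623 to 1.38 CPM with DMSO, while PSAT1 and PSPH stood at 4.54 CPM or more in every library. No test was made of this contrast between lines.

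PHGDH is the first and committing enzyme of serine synthesis. In MEC1 its libraries measured 45.9, 41.7 and 45.7 CPM with DMSO, 23.1, 24.98 and 24.7 CPM with fludarabine, 9.20, 8.38 and 9.40 CPM with ibrutinib and 8.18, 8.82 and 7.08 CPM with idelalisib. In JVM2 its libraries measured 35.2, 39.5 and 41.9 CPM with DMSO, 13.4, 13.2 and 10.4 CPM with fludarabine, 49.8, 53.1 and 56.6 CPM with ibrutinib and 52.1, 60.8 and 54.1 CPM with idelalisib. In EHEB its libraries measured 1.38, 0.919 and 0.623 CPM with DMSO, 0.642, 0.179 and 0.238 CPM with fludarabine, 0.539, 0.823 and 1.05 CPM with ibrutinib and 0.493, 0.109 and 0.191 CPM with idelalisib. Each drug lay below DMSO in MEC1, and in JVM2 fludarabine lay below DMSO and both kinase inhibitors above it. The falls in MEC1 were −0.87 ± 0.09 (adjusted p = 1.83e-05), −2.30 ± 0.10 (adjusted p = 3.51e-08) and −2.47 ± 0.10 (adjusted p = 2.03e-08) with fludarabine, ibrutinib and idelalisib. In JVM2 it fell with fludarabine, −1.65 ± 0.11 (adjusted p = 4.53e-07), and rose with ibrutinib, 0.45 ± 0.11 (adjusted p = 0.00849), and idelalisib, 0.52 ± 0.11 (adjusted p = 0.00227), although in a joint fit of all 36 libraries the rises had adjusted p = 0.136 and 0.0595. In EHEB the idelalisib value was −1.92 ± 0.63 (adjusted p = 0.0363) on 5 to 14 counts per library. That call was lost without DMSO library EHEB_CTRL_DMSO_133 (adjusted p = 0.128) or EHEB_CTRL_DMSO_134 (0.0709) or idelalisib library EHEB_Idel_10uM_287 (0.122) or EHEB_Idel_10uM_288 (0.115).

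PSAT1, the transaminase of the pathway, moved in opposite directions in MEC1 and EHEB with fludarabine. The MEC1 levels were 109, 111 and 104 CPM with DMSO, 63.5, 63.4 and 62.7 CPM with fludarabine, 40.6, 35.3 and 43.4 CPM with ibrutinib and 30.8, 27.3 and 32.7 CPM with idelalisib. The EHEB levels were 14.1, 13.1 and 12.5 CPM with DMSO, 30.2, 32.2 and 33.4 CPM with fludarabine, 15.6, 11.6 and 14.2 CPM with ibrutinib and 6.09, 6.94 and 4.54 CPM with idelalisib. In MEC1 each drug group lay below DMSO, and in EHEB fludarabine lay above and idelalisib below. The changes in MEC1 were −0.78 ± 0.08 (adjusted p = 2.5e-05), −1.44 ± 0.09 (adjusted p = 3.2e-07) and −1.84 ± 0.09 (adjusted p = 5.07e-08) with fludarabine, ibrutinib and idelalisib. In EHEB they were 1.27 ± 0.15 (adjusted p = 4.5e-05), 0.06 ± 0.15 (adjusted p = 0.822) and −1.17 ± 0.15 (adjusted p = 0.000134).

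PSPH, the phosphatase that completes the pathway, departed from the other genes. It was the sole gene called higher in MEC1 with ibrutinib, from 38.9 to 47.6 to 59.1 to 64.3 CPM, 0.48 ± 0.09 (adjusted p = 0.00128), and with idelalisib, to 55.8 to 67.7 CPM, 0.46 ± 0.09 (adjusted p = 0.00137). It rose in JVM2 with fludarabine, 0.30 ± 0.10 (adjusted p = 0.0223), ibrutinib, 0.68 ± 0.10 (adjusted p = 0.000383), and idelalisib, 0.72 ± 0.10 (adjusted p = 0.000114), and in EHEB with fludarabine, 0.39 ± 0.10 (adjusted p = 0.00866). It was called lower in none of the 9 comparisons. The fludarabine call in JVM2 was lost without DMSO library JVM2_CTRL_DMSO_86 (adjusted p = 0.0711) or JVM2_CTRL_DMSO_87 (0.0856), without fludarabine library JVM2_Flud_50uM_96 (0.068) and in a fit of 6 libraries (0.0523).

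**Figure D5:**
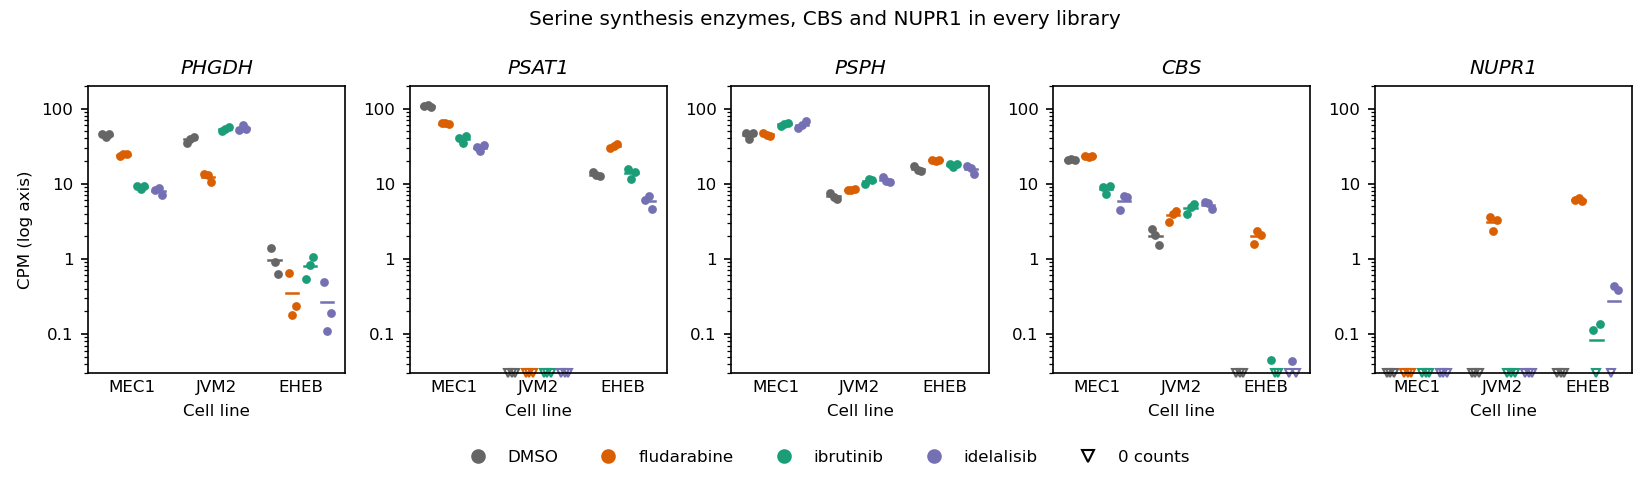
Level of PHGDH, PSAT1, PSPH, CBS and NUPR1 in each library (CPM, log axis, the same range in all panels), by line and treatment, with group means as bars. Open triangles mark libraries without a count. PSAT1 is at 0 in JVM2, PHGDH lies at 1.38 CPM or less in EHEB, and NUPR1 lies at 2.32 CPM or more with fludarabine in JVM2 and EHEB and at 0 in MEC1.

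ALDH1L2 is a mitochondrial folate enzyme. In MEC1 the values read 8.51, 10.8 and 8.03 CPM with DMSO, 6.64, 7.55 and 5.79 CPM with fludarabine, 2.40, 3.78 and 3.61 CPM with ibrutinib and 4.15, 3.60 and 2.08 CPM with idelalisib. In JVM2 the values read 11.6, 8.63 and 10.2 CPM with DMSO, 8.56, 9.62 and 9.62 CPM with fludarabine, 18.3, 16.9 and 17.8 CPM with ibrutinib and 26.7, 25.3 and 26.7 CPM with idelalisib. In EHEB the values read 0.495, 0.193 and 0.178 CPM with DMSO, 0.571, 0.807 and 0.688 CPM with fludarabine, 0.427, 0.122 and 0.457 CPM with ibrutinib and 0.211, 0.524 and 0.191 CPM with idelalisib. MEC1 treated libraries lay below DMSO, the kinase inhibitor libraries of JVM2 lay above it, and EHEB libraries held 4 to 27 counts. In MEC1 it fell with ibrutinib, −1.48 ± 0.25 (adjusted p = 0.000566), and idelalisib, −1.48 ± 0.25 (adjusted p = 0.000447). In JVM2 it rose with ibrutinib, 0.80 ± 0.10 (adjusted p = 0.000207), and idelalisib, 1.37 ± 0.10 (adjusted p = 1.76e-06). With fludarabine MEC1 gave −0.45 ± 0.25 (adjusted p = 0.162), JVM2 −0.13 ± 0.10 (adjusted p = 0.325) and EHEB 1.25 ± 0.60 (adjusted p = 0.128). SHMT2, which converts serine to glycine in mitochondria, was the gene with the largest fall with fludarabine in MEC1, from 369 to 372 to 110.0 to 177 CPM, −1.29 ± 0.18 (adjusted p = 0.000134), and it was called lower in 5 of 9 comparisons and higher in 0. MTHFD2, the dehydrogenase of the same pathway, fell in MEC1 with each drug, −0.59, −1.11 and −1.14, and rose with fludarabine in JVM2, 0.37 ± 0.05 (adjusted p = 0.000213), and EHEB, 0.50 ± 0.07 (adjusted p = 0.000274).

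The 7 other amino acid enzymes were all lower in MEC1 with idelalisib, 6 were lower with ibrutinib and 5 with fludarabine. In JVM2 the counts higher and lower were 1 and 5 with fludarabine, 1 and 3 with ibrutinib and 1 and 3 with idelalisib. In EHEB they were 3 and 3, 0 and 1, and 0 and 5. The shares of all genes are those given with the transcription factors. With ibrutinib the 1 of 7 higher in JVM2 (beside 14.5%) and the 1 of 7 lower in EHEB (beside 11.2%) lay near them.

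ASNS makes asparagine and is a standard readout of ATF4 activity. In MEC1 the ASNS levels were 134.3, 145 and 132.6 CPM with DMSO, 62.3, 76.6 and 91.5 CPM with fludarabine, 37.9, 40.0 and 44.7 CPM with ibrutinib and 37.9, 33.5 and 37.4 CPM with idelalisib. In JVM2 the ASNS levels were 38.8, 37.6 and 39.7 CPM with DMSO, 29.4, 29.3 and 29.3 CPM with fludarabine, 39.2, 34.4 and 36.4 CPM with ibrutinib and 47.01, 37.1 and 38.03 CPM with idelalisib. In EHEB the ASNS levels were 28.98, 31.0 and 28.8 CPM with DMSO, 42.1, 41.4 and 39.2 CPM with fludarabine, 25.03, 24.3 and 30.2 CPM with ibrutinib and 21.1, 20.1 and 16.5 CPM with idelalisib. All treated MEC1 libraries lay below DMSO, fludarabine libraries lay below DMSO in JVM2 and above it in EHEB, and idelalisib libraries lay below it in EHEB. In MEC1 it fell, −0.84 ± 0.12 (adjusted p = 0.000206), −1.75 ± 0.12 (adjusted p = 1.01e-06) and −1.92 ± 0.13 (adjusted p = 3.12e-07) with fludarabine, ibrutinib and idelalisib. In JVM2 it fell with fludarabine, −0.40 ± 0.09 (adjusted p = 0.00297), which was not called when scaled by library size (adjusted p = 0.0793), and the kinase inhibitor values were −0.08 ± 0.09 (adjusted p = 0.565) and 0.07 ± 0.09 (adjusted p = 0.529). In EHEB it rose with fludarabine, 0.47 ± 0.10 (adjusted p = 0.00457), and fell with idelalisib, −0.62 ± 0.11 (adjusted p = 0.000955), with −0.16 ± 0.10 (adjusted p = 0.34) for ibrutinib.

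CBS condenses homocysteine with serine on the way to cysteine. In MEC1 CBS measured 20.5, 21.4 and 20.4 CPM with DMSO, 23.2, 22.8 and 23.4 CPM with fludarabine, 9.02, 7.26 and 9.29 CPM with ibrutinib and 4.48, 6.81 and 6.57 CPM with idelalisib. In JVM2 CBS measured 2.53, 2.06 and 1.54 CPM with DMSO, 3.07, 3.99 and 4.37 CPM with fludarabine, 3.95, 4.91 and 5.32 CPM with ibrutinib and 5.63, 5.603 and 4.60 CPM with idelalisib. In EHEB CBS measured 0, 0 and 0 CPM with DMSO, 1.57, 2.36 and 2.07 CPM with fludarabine, 0.0449, 0 and 0 CPM with ibrutinib and 0, 0.0437 and 0 CPM with idelalisib. The kinase inhibitor libraries lay below DMSO in MEC1, and every treated library lay above it in JVM2. CBS fell in MEC1 with ibrutinib, −1.28 ± 0.14 (adjusted p = 2.68e-05), and idelalisib, −1.80 ± 0.15 (adjusted p = 1.63e-06), while the fludarabine value was 0.16 ± 0.14 (adjusted p = 0.403). It had the largest rises of JVM2 with ibrutinib, 1.21 ± 0.21 (adjusted p = 0.00138), and idelalisib, 1.37 ± 0.21 (adjusted p = 0.000305). It also rose with fludarabine in JVM2, 0.90 ± 0.21 (adjusted p = 0.0041). In EHEB it had 0 counts with DMSO and 44 to 79 with fludarabine, at least 28.1-fold higher against 3 counts per DMSO library (adjusted p = 0.000173). CBS shares its sequence with the near-identical copy CBSL, so that the split between them is uncertain. The summed level of both was 3.16 to 5.41 CPM with DMSO in JVM2, 6.83 to 8.97 with fludarabine, 9.31 to 11.01 with ibrutinib and 11.7 to 12.6 with idelalisib, with no drug group overlapping DMSO. In MEC1 CBSL had counts in 2 fludarabine libraries, 5 in MEC1_Flud_50uM_48h_46 and 317 in MEC1_Flud_50uM_48h_47, and 0 in the others.

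PYCR1 completes proline synthesis. In MEC1 PYCR1 measured 163, 112 and 146 CPM with DMSO, 54.3, 51.4 and 70.2 CPM with fludarabine, 82.3, 50.5 and 50.8 CPM with ibrutinib and 39.4, 37.99 and 36.2 CPM with idelalisib. In JVM2 PYCR1 measured 68.7, 68.9 and 68.1 CPM with DMSO, 27.7, 24.9 and 23.6 CPM with fludarabine, 55.4, 54.1 and 46.2 CPM with ibrutinib and 41.6, 38.4 and 37.9 CPM with idelalisib. In EHEB PYCR1 measured 23.4, 17.2 and 22.4 CPM with DMSO, 12.8, 11.9 and 11.8 CPM with fludarabine, 21.1, 16.3 and 16.2 CPM with ibrutinib and 9.02, 9.10 and 14.1 CPM with idelalisib. All treated groups lay below DMSO except ibrutinib in EHEB, which overlapped it, and 8 of 9 comparisons were called lower. The falls in MEC1 were −1.26 ± 0.20 (adjusted p = 0.000411), −1.20 ± 0.20 (adjusted p = 0.000504) and −1.89 ± 0.21 (adjusted p = 1.36e-05) with fludarabine, ibrutinib and idelalisib. The falls in JVM2 were −1.43 ± 0.08 (adjusted p = 1.4e-07), −0.40 ± 0.08 (adjusted p = 0.00355) and −0.80 ± 0.08 (adjusted p = 1.69e-05), the ibrutinib one not called in a joint fit of 36 libraries (adjusted p = 0.12). In EHEB it fell with fludarabine, −0.79 ± 0.19 (adjusted p = 0.00586), and idelalisib, −0.97 ± 0.19 (adjusted p = 0.0021), with −0.24 ± 0.18 (adjusted p = 0.419) for ibrutinib. ALDH18A1, which starts the same proline pathway, was the one gene called lower in all 9 comparisons, from −0.69 with idelalisib in EHEB to −0.16 with ibrutinib in MEC1. The last of these was lost without DMSO library MEC1_DMSO_CTRL_48h_37 (adjusted p = 0.11), MEC1_DMSO_CTRL_48h_38 (0.078) or MEC1_DMSO_CTRL_48h_39 (0.0563), without ibrutinib library MEC1_Ibru_5uM_48h_184 (0.0508) or MEC1_Ibru_5uM_48h_185 (0.136) and when scaled by library size (0.231), with 6 libraries only (0.0724) or with a mean of at least 5 CPM (0.16).

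CTH, which releases cysteine from cystathionine, fell in MEC1 from 40.8 to 50.4 CPM to 8.42 to 9.12 with ibrutinib, −2.35 ± 0.10 (adjusted p = 3.34e-08), and 8.45 to 8.88 with idelalisib, −2.37 ± 0.10 (adjusted p = 2.23e-08). It was lower in 7 of 9 comparisons and higher with fludarabine in EHEB, 0.63 ± 0.15 (adjusted p = 0.00735). GPT2, the mitochondrial alanine aminotransferase, fell in MEC1 with ibrutinib, −2.13 ± 0.31 (adjusted p = 0.000184), and idelalisib, −2.36 ± 0.31 (adjusted p = 6.63e-05). Its fludarabine falls, −0.80 ± 0.30 (adjusted p = 0.0479) in MEC1 and −0.37 ± 0.12 (adjusted p = 0.0235) in JVM2, were not called when scaled by library size (adjusted p = 0.16 and 0.313). The MEC1 call was also lost without DMSO library MEC1_DMSO_CTRL_48h_37 (0.0791), MEC1_DMSO_CTRL_48h_38 (0.0875) or MEC1_DMSO_CTRL_48h_39 (0.106) or fludarabine library MEC1_Flud_50uM_48h_46 (0.155) or MEC1_Flud_50uM_48h_48 (0.0838), and the JVM2 call without DMSO library JVM2_CTRL_DMSO_85 (0.0933) or fludarabine library JVM2_Flud_50uM_94 (0.0772) or JVM2_Flud_50uM_95 (0.0656). PCK2, which makes phosphoenolpyruvate in mitochondria, fell with idelalisib in EHEB from 43.6 to 55.9 to 27.2 to 28.0 CPM, −0.83 ± 0.10 (adjusted p = 0.000106), and in MEC1, −0.58 ± 0.16 (adjusted p = 0.0102). With fludarabine in EHEB it was called at −0.29 ± 0.10 (adjusted p = 0.0487), but not when scaled by library size (adjusted p = 0.165) or without DMSO library EHEB_CTRL_DMSO_133 (0.174) or EHEB_CTRL_DMSO_135 (0.0708) or fludarabine library EHEB_Flud_50uM_143 (0.156) or EHEB_Flud_50uM_144 (0.0941).

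All 8 amino acid transporters were lower in MEC1 with ibrutinib, 6 with idelalisib and 7 with fludarabine. In JVM2 the counts higher and lower were 3 and 3 with fludarabine, 4 and 1 with ibrutinib and 6 and 2 with idelalisib. In EHEB they were 5 and 1, 1 and 2, and 1 and 2. The shares of all genes are those given with the transcription factors. Near them in JVM2 lay the 1 of 8 lower with ibrutinib (beside 15%) and the 2 of 8 lower with idelalisib (beside 22.6%). In EHEB the 1 of 8 lower with fludarabine (beside 19.2%) and the 1 of 8 higher with ibrutinib (beside 8.5%) were also near. So were the 1 of 8 higher and the 2 of 8 lower with idelalisib (beside 15.1% and 18.2%).

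SLC7A11 imports cystine in exchange for glutamate and so feeds glutathione synthesis. In MEC1 SLC7A11 read 32.5, 41.1 and 33.3 CPM with DMSO, 39.1, 45.3 and 39.6 CPM with fludarabine, 18.1, 16.3 and 17.2 CPM with ibrutinib and 14.7, 13.9 and 16.0 CPM with idelalisib. In JVM2 SLC7A11 read 24.9, 23.7 and 12.7 CPM with DMSO, 27.7, 29.7 and 31.6 CPM with fludarabine, 42.7, 41.8 and 45.3 CPM with ibrutinib and 37.8, 36.3 and 41.0 CPM with idelalisib. In EHEB SLC7A11 read 18.1, 16.9 and 16.2 CPM with DMSO, 28.1, 31.2 and 30.6 CPM with fludarabine, 34.3, 35.8 and 36.2 CPM with ibrutinib and 24.1, 23.9 and 22.2 CPM with idelalisib. Every drug group lay above DMSO in JVM2 and EHEB, and both kinase inhibitor groups lay below DMSO in MEC1. It rose in EHEB, 0.82 ± 0.07 (adjusted p = 4.72e-06), 1.06 ± 0.07 (adjusted p = 5.43e-06) and 0.46 ± 0.07 (adjusted p = 0.000488) with fludarabine, ibrutinib and idelalisib. It rose in JVM2, 0.54 ± 0.20 (adjusted p = 0.0417), 1.08 ± 0.20 (adjusted p = 0.00195) and 0.91 ± 0.20 (adjusted p = 0.00311). DMSO library JVM2_CTRL_DMSO_87 was the lowest of JVM2, and without it these changes were 0.29, 0.83 and 0.65. The fludarabine call in JVM2 was lost without fludarabine library JVM2_Flud_50uM_94 (adjusted p = 0.0608), JVM2_Flud_50uM_95 (0.0848) or JVM2_Flud_50uM_96 (0.115) and in a fit of 6 libraries (0.112). In MEC1 it fell, −1.05 ± 0.10 (adjusted p = 1.15e-05) and −1.26 ± 0.11 (adjusted p = 1.9e-06) with ibrutinib and idelalisib, and the fludarabine value was 0.22 ± 0.10 (adjusted p = 0.115). That value was called without DMSO library MEC1_DMSO_CTRL_48h_38 (adjusted p = 0.0204). The antisense gene SLC7A11-AS1 was counted apart and held 1.10% to 7.33% as many counts.

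SLC7A5 is the light chain of the large neutral amino acid transporter LAT1 and SLC3A2 its heavy chain. In MEC1 SLC7A5 measured 359, 367 and 334 CPM with DMSO, 253, 263 and 242 CPM with fludarabine, 148, 118 and 145 CPM with ibrutinib and 106, 118 and 121 CPM with idelalisib. In JVM2 SLC7A5 measured 30.9, 34.3 and 31.8 CPM with DMSO, 27.7, 22.7 and 24.1 CPM with fludarabine, 42.0, 44.7 and 42.5 CPM with ibrutinib and 60.1, 55.4 and 54.3 CPM with idelalisib. In EHEB SLC7A5 measured 13.8, 10.7 and 12.4 CPM with DMSO, 30.5, 30.1 and 36.4 CPM with fludarabine, 9.66, 9.96 and 13.9 CPM with ibrutinib and 6.20, 7.62 and 6.93 CPM with idelalisib. All treated MEC1 libraries lay below DMSO, and the EHEB fludarabine libraries lay above it. In MEC1 it fell with ibrutinib, −1.37 ± 0.09 (adjusted p = 6.09e-07), and idelalisib, −1.62 ± 0.09 (adjusted p = 1.21e-07), and in JVM2 it rose with them, 0.42 ± 0.08 (adjusted p = 0.00257) and 0.81 ± 0.08 (adjusted p = 1.35e-05). With fludarabine it fell in MEC1, −0.49 ± 0.09 (adjusted p = 0.000987), and JVM2, −0.38 ± 0.08 (adjusted p = 0.00227), neither called when scaled by library size (adjusted p = 0.0584 and 0.0654), and rose in EHEB, 1.40 ± 0.16 (adjusted p = 3.34e-05). With idelalisib in EHEB it fell, −0.83 ± 0.16 (adjusted p = 0.00207), and with ibrutinib it did not pass, −0.14 ± 0.16 (adjusted p = 0.602). The pseudogenes SLC7A5P1 and SLC7A5P2, counted apart, held 7.87% and 10.3% as many counts as SLC7A5 over all EHEB libraries. The share was larger with idelalisib, where SLC7A5 had 176 to 349 counts, SLC7A5P1 41 to 81 and SLC7A5P2 42 to 57. SLC3A2 fell in MEC1 with each drug, −0.62, −1.42 and −1.60, and rose with fludarabine in EHEB, 1.31 ± 0.09 (adjusted p = 5.99e-07). It fell in JVM2 with ibrutinib, −0.35 ± 0.08 (adjusted p = 0.00494), and idelalisib, −0.49 ± 0.08 (adjusted p = 0.00035).

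SLC43A1 carries large neutral amino acids by facilitated diffusion. In MEC1 SLC43A1 had 51.1, 54.3 and 51.2 CPM with DMSO, 31.1, 30.4 and 28.7 CPM with fludarabine, 27.02, 27.8 and 27.7 CPM with ibrutinib and 30.1, 29.4 and 31.1 CPM with idelalisib. In JVM2 SLC43A1 had 24.9, 26.0 and 26.6 CPM with DMSO, 14.4, 14.5 and 12.5 CPM with fludarabine, 21.5, 23.6 and 21.9 CPM with ibrutinib and 23.3, 22.0 and 21.3 CPM with idelalisib. In EHEB SLC43A1 had 8.36, 7.49 and 8.92 CPM with DMSO, 3.14, 4.22 and 4.50 CPM with fludarabine, 8.99, 8.41 and 7.61 CPM with ibrutinib and 8.07, 8.95 and 9.02 CPM with idelalisib. It lay below DMSO with fludarabine in all 3 lines and with both kinase inhibitors in MEC1 and JVM2. Fludarabine lowered it in each line, −0.79 ± 0.06 (adjusted p = 1.68e-06) for MEC1 cells, −0.90 ± 0.07 (adjusted p = 2.5e-06) for JVM2 cells and −1.06 ± 0.14 (adjusted p = 0.000126) for EHEB cells. Ibrutinib and idelalisib lowered it in MEC1, −0.92 ± 0.06 (adjusted p = 5.27e-07) and −0.79 ± 0.06 (adjusted p = 8.67e-07). In JVM2 ibrutinib gave −0.21 ± 0.07 (adjusted p = 0.0556) and idelalisib −0.22 ± 0.07 (adjusted p = 0.0319), a call that was lost without DMSO library JVM2_CTRL_DMSO_86 (adjusted p = 0.0741) or JVM2_CTRL_DMSO_87 (0.0916) or idelalisib library JVM2_Idel_10uM_239 (0.097) or JVM2_Idel_10uM_240 (0.122) and when scaled by library size (0.155). In EHEB the kinase inhibitor values were 0.01 ± 0.14 (adjusted p = 0.963) and 0.07 ± 0.14 (adjusted p = 0.726).

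SLC7A1, the carrier of arginine and lysine, fell in MEC1 with all drugs, most with idelalisib, −1.42 ± 0.09 (adjusted p = 2.01e-07), and rose with fludarabine in EHEB, 0.42 ± 0.06 (adjusted p = 0.000208). SLC1A5, the glutamine carrier ASCT2, fell in MEC1 from 326 to 354 CPM to 105 to 117 with ibrutinib and 107 to 119 with idelalisib, −1.61 ± 0.06 (adjusted p = 2.76e-08) and −1.59 ± 0.06 (adjusted p = 2.03e-08), and rose with fludarabine in EHEB, 0.62 ± 0.12 (adjusted p = 0.00191). Its fludarabine fall in MEC1 was lost when scaled by library size (adjusted p = 0.983) and in a joint fit of 36 libraries (0.0976). SLC1A4, the serine and alanine carrier ASCT1, rose in JVM2 with fludarabine, 0.27 ± 0.04 (adjusted p = 0.000441), ibrutinib, 0.68 ± 0.04 (adjusted p = 3.66e-06), and idelalisib, from 67.6 to 71.6 to 132 to 136 CPM, 0.94 ± 0.04 (adjusted p = 8e-08). Its fludarabine change in MEC1, −0.15 ± 0.05 (adjusted p = 0.0421), was 0.10 (adjusted p = 0.205) when scaled by library size, and the call was lost without any 1 of 5 libraries, DMSO MEC1_DMSO_CTRL_48h_37 or MEC1_DMSO_CTRL_48h_38 or fludarabine MEC1_Flud_50uM_48h_46, MEC1_Flud_50uM_48h_47 or MEC1_Flud_50uM_48h_48 (0.0580 to 0.134). In a joint fit of 36 libraries its fludarabine change in JVM2 had adjusted p = 0.162. SLC38A2, a carrier that cells induce when amino acids run short, had called changes of −0.39 in MEC1 to 0.40 in JVM2, both with fludarabine, the former not called when scaled by library size (adjusted p = 0.11). With idelalisib in MEC1 its value was 0.02 ± 0.06 (adjusted p = 0.832).

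Idelalisib and ibrutinib were also compared with each other, without DMSO and between neighbouring library numbers, at 10 µM and 5 µM. In EHEB 12 of the 37 genes were lower and 1 higher with idelalisib (beside 9.09% lower and 6.77% higher of all genes). In JVM2 10 of 36 were higher and 4 lower (beside 8.21% and 10.5%). In MEC1 2 were higher and 6 lower (beside 6.01% and 9.37%), but scaled by library size 0 were higher and 14 lower, with the median of all genes at −0.17. The MEC1 count of 8 fell to 1 in a fit of 6 libraries, and to 4 without ibrutinib library MEC1_Ibru_5uM_48h_184 or MEC1_Ibru_5uM_48h_186, 2 without idelalisib library MEC1_Idel_10uM_48h_190 or MEC1_Idel_10uM_48h_192 and 5 without MEC1_Idel_10uM_48h_191. DDIT4 was lower with idelalisib in each line, with MEC1 at −0.32 ± 0.05 (adjusted p = 0.00223), JVM2 at −1.14 ± 0.12 (adjusted p = 0.000127) and EHEB at −1.11 ± 0.09 (adjusted p = 1.92e-05). The largest fall in EHEB was that of PSAT1, −1.23 ± 0.15 (adjusted p = 0.000288), and the sole rise that of PPP1R15A, 0.68 ± 0.08 (adjusted p = 0.000274). SLC7A11 and CHAC1 were lower with idelalisib in EHEB, −0.60 ± 0.07 (adjusted p = 0.000213) and −0.69 ± 0.14 (adjusted p = 0.00783). In JVM2 ALDH1L2 had the largest rise, 0.57 ± 0.10 (adjusted p = 0.00278), and DDIT4 the largest fall. In MEC1 ATF5 had the largest fall, −1.28 ± 0.30 (adjusted p = 0.0157), lost without ibrutinib library MEC1_Ibru_5uM_48h_186 (adjusted p = 0.0639) or idelalisib library MEC1_Idel_10uM_48h_190 (0.0694) or MEC1_Idel_10uM_48h_192 (0.0629). The largest rise, that of SLC38A2, 0.21 ± 0.06 (adjusted p = 0.0383), was lost without any 1 of the 6 libraries (0.0588 to 0.188) and when scaled by library size (0.783). For ASNS in MEC1 the difference was −0.17 ± 0.12 (adjusted p = 0.417), for TRIB3 −0.07 ± 0.11 (adjusted p = 0.749) and for CHAC1 −0.36 ± 0.19 (adjusted p = 0.263).

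Per kilobase of exon, with DMSO, ATF4 had the highest level of the 37 genes in MEC1 (156 ± 8.34 CPM per kb, SD, n = 3) and JVM2 (145 ± 15.4), and DDIT4 came next (133.2 ± 3.37 and 92.4 ± 6.01). In EHEB DDIT4 was highest (91.9 ± 6.21), followed by ALDH18A1 (39.8 ± 0.873) and ATF4 (38.8 ± 5.17), which did not differ beyond their spread. After these came SLC1A5 in MEC1 (103 ± 4.58) and ATF5 in JVM2 (74.4 ± 2.80). The lowest genes with DMSO counts were ALDH1L2 in MEC1 (0.960 ± 0.156) and EHEB (0.0304 ± 0.0188) and CBS in JVM2 (0.301 ± 0.0725). The place of CBS in JVM2 is uncertain, because its reads may be split with the copy CBSL. With DMSO in JVM2 the mean level was 2.04 CPM for CBS alone and 4.30 CPM for both summed. Exon lengths were those of the GENCODE annotation and may not be the isoforms expressed. Of the 37 genes, 16 overlap another gene on the other strand and 9 one on the same strand, and whether counting used strand is not given in the sources used here.

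Lists of other genes of the pathway were read in the same fits, beside the share of all genes called. In the order fludarabine, ibrutinib and idelalisib, the shares of all genes higher and lower were 21.2% and 22.7%, 23.7% and 23.9%, and 27.6% and 27.4% in MEC1. They were 23.9% and 23.3%, 14.5% and 15%, and 21.6% and 22.6% in JVM2, and 18.4% and 19.2%, 8.5% and 11.2%, and 15.1% and 18.2% in EHEB. Of 20 cytosolic aminoacyl-tRNA synthetases, which charge tRNAs and include ATF4 targets, 16 were lower (80%) and 1 higher in MEC1 with idelalisib, 12 and 3 with ibrutinib and 13 and 2 with fludarabine. The largest called changes of the list were the rise of WARS with fludarabine in JVM2 (1.99) and the fall of GARS with idelalisib in MEC1 (−1.90). In EHEB 9 were higher and 2 lower with fludarabine, 1 and 1 with ibrutinib and 0 and 11 with idelalisib. In JVM2 the counts higher and lower were 7 and 6, 5 and 5, and 4 and 4, the last (20% each) near the shares of all genes. The median log2 fold changes in MEC1 were −0.46, −0.44 and −0.77 with fludarabine, ibrutinib and idelalisib. The JVM2 medians were 0.04, 0.03 and −0.04, and those of EHEB 0.20, 0.01 and −0.30. Another list held the eIF2 kinases, their regulators GCN1, IMPACT and DNAJC3, the subunits of eIF2 and eIF2B and the phosphatase subunit PPP1R15B, 16 genes in all. Its counts higher and lower in MEC1 were 2 and 9 with fludarabine, 2 and 7 with ibrutinib and 0 and 7 with idelalisib, of 15 tested. The JVM2 counts were 4 and 5, 2 and 5, and 4 and 8 of 15, where those with fludarabine (26.7% and 33.3%) and the 4 higher with idelalisib (26.7%) lay near the shares of all genes. Those of EHEB were 5 and 3, 2 and 2, and 2 and 5 of 16. In EHEB the 3 lower with fludarabine, the 2 and 2 with ibrutinib and the 2 higher with idelalisib lay near the shares. So did the 2 higher with ibrutinib in JVM2. EIF2AK2, the kinase PKR, had the largest called change, a rise in JVM2 with idelalisib (1.24). Of the other folate and glutathione genes, the counts in MEC1 were 3 and 2, 2 and 5, and 2 and 6 of 9, and 2 of 9 (22.2%) is near the share of all genes. JVM2 had 1 and 4, 3 and 1, and 2 and 4 of 10. EHEB had 2 and 4, 1 and 4, and 1 and 6 of 10. Near the shares of all genes lay the counts higher in EHEB with each drug. In JVM2 the 1 lower with ibrutinib and the 2 higher with idelalisib were near as well. The largest called changes were the rise of MTHFD2L, a mitochondrial folate dehydrogenase, with idelalisib in MEC1 (1.999) and the fall of GLDC, of the glycine cleavage system, with idelalisib in EHEB (−1.72).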

How the data were processed

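RNA from 36 samples of 3 cell lines was sequenced and the count table was analysed. The authors trimmed reads with Trimmomatic, aligned them to GRCh38 with HISAT2 2.1, quantified genes with StringTie 1.3.4 and deposited its estimated counts as whole numbers. Neither their annotation release nor the strand setting was given in those sources. Their own test used edgeR 3.22.5.

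Counts were tested within each line over its 12 libraries with the quasi-likelihood test of edgeR 4.0.16 (R 4.3.3) after TMM normalisation and filterByExpr, with Benjamini-Hochberg adjustment over all genes tested and a threshold of 0.05. Differences between lines were tested as an interaction per drug over both treatments in all 3 lines. CPM used TMM-scaled library sizes. An entry without a symbol, 0.00384% of counts, was left out. Libraries held 26590705 to 53538925 counts, and a gene without a count may have up to 3 counts at that depth, a limit that covers counting error only. Replicates differed by more than sampling noise in all 36 pairs (chi-square per degree of freedom 24.9 to 48.9).

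Alternatives were library size scaling, DESeq2 1.42.0, limma-voom (limma 3.58.1), no filter, a mean of at least 5 CPM, 6 libraries only, a joint fit of 36 libraries and leaving out each library. The group fits (edgeR, DESeq2 and limma-voom) and the interaction fit were run on simulated data in which every gene had the same spread. That checks the code and does not show how the fits perform on these libraries. The members and lists were chosen with earlier results of these data known. All 37 genes are named, with values in every library for 8 set genes and the 10 others with the largest median absolute change, and the largest called rise and fall of each comparison. At most the 2 largest called changes of any other list are named. A further B-cell marker and a further gene list are not reported here.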

Additional observations from a re-analysis of the deposited data

Results flagged for a closer look

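The effects of the drugs differed between the lines by the interaction test in 27 of 37 genes with fludarabine, beside 39.1% of all genes. They differed in 32 of 36 with ibrutinib (beside 33.6%) and 36 of 36 with idelalisib (beside 45.7%). These counts include PSAT1 and CBS, which had groups without a count. Among the genes plotted in every library, ATF4 had adjusted p = 5.52e-08 with fludarabine, 2.29e-06 with ibrutinib and 8.22e-07 with idelalisib, falling in MEC1 and JVM2 and rising in EHEB. CHAC1 had 9.67e-07, 4.27e-07 and 3.58e-08 in the same order. ASNS had 9.88e-06, 1.42e-07 and 3.46e-08. DDIT4 had 8.54e-05, 1.60e-07 and 7.14e-07. TRIB3 had 1.43e-05, 0.000109 and 3.62e-06. For SLC7A11 the difference was called with ibrutinib (9.91e-06) and idelalisib (6.78e-06), while with fludarabine it had adjusted p = 0.244, or 0.00866 without DMSO library JVM2_CTRL_DMSO_87. DDIT3 had 0.000449, 0.00200 and 0.0392, the last of which was lost with a mean of at least 5 CPM (0.0509) and without any 1 of 11 libraries (0.0506 to 0.0968): DMSO libraries EHEB_CTRL_DMSO_133, EHEB_CTRL_DMSO_134, EHEB_CTRL_DMSO_135, JVM2_CTRL_DMSO_87, MEC1_DMSO_CTRL_48h_37 and MEC1_DMSO_CTRL_48h_38 and idelalisib libraries EHEB_Idel_10uM_286, EHEB_Idel_10uM_288, JVM2_Idel_10uM_238, MEC1_Idel_10uM_48h_191 and MEC1_Idel_10uM_48h_192. PSAT1, which had no count in any JVM2 library, had 8.60e-08, 9.79e-05 and 0.0239 in the same test over all 3 lines. Its idelalisib call was lost without any 1 of 6 libraries (0.0508 to 0.0583), DMSO libraries EHEB_CTRL_DMSO_135, MEC1_DMSO_CTRL_48h_37 and MEC1_DMSO_CTRL_48h_38 and idelalisib libraries EHEB_Idel_10uM_286, EHEB_Idel_10uM_287 and MEC1_Idel_10uM_48h_191. All are edgeR values adjusted over all genes tested, and line and time of exposure differ together.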

How the results depend on the processing

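Of 260 called values, 206 kept direction and call under all alternatives and left-out libraries, and of 176 values not called, 122 stayed so. Scaled by library size, the change of SLC1A4 with fludarabine in MEC1 turned to 0.097 (adjusted p = 0.205). The 8 genes called between idelalisib and ibrutinib in MEC1 became 14 by library size scaling, 3 with no filter and 1 with 6 libraries only, and 2 to 8 on leaving out a library. In the other comparisons the left-out libraries gave 23 to 25, 30 to 33 and 32 to 33 in MEC1 (fludarabine, ibrutinib, idelalisib), 25 to 28, 18 to 20 and 20 to 25 in JVM2, and 25 to 27, 9 to 12 and 21 to 24 in EHEB. Idelalisib against ibrutinib gave 10 to 13 in JVM2 and 10 to 12 in EHEB, and the interactions 26 to 29, 31 to 33 and 34 to 36. The cause was not tested. No paired analysis was possible because no library number is shared between groups. Depth limits genes with few counts, such as PHGDH and ALDH1L2 in EHEB.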

Other observations

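NRF2 targets, which detoxify oxidants, were all higher in EHEB with fludarabine (8 of 8 tested), where 4 were higher with ibrutinib and 3 with idelalisib and none was lower, beside 18.4%, 8.5% and 15.1% of all genes higher. Their largest called change was that of HMOX1, haem oxygenase, with fludarabine in EHEB (4.20). In MEC1 the counts higher and lower were 3 and 3, 0 and 6, and 1 and 8 of 9 with fludarabine, ibrutinib and idelalisib, and in JVM2 3 and 2, 3 and 2, and 2 and 3. Of all genes, 21.2% and 22.7%, 23.7% and 23.9%, and 27.6% and 27.4% were higher and lower in MEC1 and 23.9% and 23.3%, 14.5% and 15%, and 21.6% and 22.6% in JVM2. The JVM2 counts with fludarabine (33.3% and 22.2%) and the 2 higher with idelalisib (22.2%) lay near these shares. The medians with fludarabine were −0.13 in MEC1, 0.16 in JVM2 and 1.02 in EHEB, beside 0.06, 0.06 and 0.02 over all genes.

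Of 10 chaperones and genes of the XBP1 and ATF6 branches of the unfolded protein response, 7, 9 and 8 were lower in MEC1 with fludarabine, ibrutinib and idelalisib and 1, 0 and 1 higher. In JVM2 3 and 4, 2 and 4, and 3 and 3 were higher and lower, and in EHEB 3 and 4, 2 and 1, and 2 and 4. Of all genes, 21.2% and 22.7%, 23.7% and 23.9%, and 27.6% and 27.4% were higher and lower in MEC1. The JVM2 shares were 23.9% and 23.3%, 14.5% and 15%, and 21.6% and 22.6%. The shares of all genes higher and lower in EHEB were 18.4% and 19.2%, 8.5% and 11.2%, and 15.1% and 18.2%, and counts such as 3 and 3 in JVM2 with idelalisib (30% each, beside 21.6% and 22.6%) and 1 lower in EHEB with ibrutinib (10%, beside 11.2%) lay near the shares of all genes. The largest called change was the fall of DNAJB9, an endoplasmic reticulum co-chaperone, with fludarabine in MEC1 (−0.98).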
